A study of Arabidopsis thaliana with 36 samples.

Results

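Messenger RNA bound to small polysomes was compared between midday and midnight in shoots of the plant Arabidopsis thaliana. The comparison rests on 6 of the 36 arrays in the series, those titled small polysomal and harvested at 12pm or at 12am, with 3 replicates of each. In Zeitgeber time (ZT, hours after lights on) these harvests were ZT6, in the light, and ZT18, in the dark. Both groups were aerial parts of wild-type Columbia seedlings aged 10 days, raised on agar with Murashige and Skoog salts and 1% sucrose in 16 h of light and 8 h of dark. No transgene or treatment is named for them, and the sugar in the medium was shared by all groups. The same extracts also gave a non-polysomal and a large polysomal fraction, and 6 further extracts came from ZT0 and ZT12. Seedlings overexpressing CCA1 belong to the design too and were not analysed here. All 36 arrays are titled wild type. Nothing in the labels says whether replicates were grown apart, and a p-value here measures only how these samples vary, which may be technical variation.

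A polysome is an mRNA carrying several ribosomes at once, and a sucrose gradient separates mRNAs by how many they carry. Small polysomes hold short open reading frames and longer ones with sparse ribosomes. The labels do not give the number of ribosomes at which small polysomes end. In leaves, light and the circadian clock set the daily timing of many transcripts, among them those for photosynthesis, pigments, cold tolerance and defence compounds.

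Each array value is a log2 level made with GCRMA, which scales all arrays to one distribution, so a value is relative to the mRNA of its array and a change in the total amount of small polysomal mRNA is not seen. The lowest value in the table is 2.20, and genes near it have no measured order. Within this fraction, replicate arrays correlated at 0.977 to 0.982 at ZT6 and at 0.934 to 0.973 at ZT18. At ZT18, replicates 2 and 3 stood apart in signals other than nuclear mRNA. The 62 plastid-encoded genes averaged 8.43, 9.46 and 9.08 in the ZT6 replicates, against 7.85, 11.56 and 10.46 in the ZT18 replicates. The 27 probe sets for polyadenylated control RNAs averaged 4.70, 4.92 and 4.58 at ZT6, against 4.87, 5.98 and 6.02 at ZT18. Leaf identity was checked with transcripts of the mesophyll: RCA, the activase of Rubisco, averaged 12.84 at ZT6 and 12.36 at ZT18. Of the root markers with a probe set of their own, EXPA7 was at the lowest value on all 6 arrays, RCH1 (AT5G48940) averaged 3.02 at ZT6 and 3.48 at ZT18, and PYK10 was bright, as given below.

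Of the 6845 transcripts tested in small polysomes, 1021 (14.9%) were more abundant at midday and 875 (12.8%) less abundant, relative to midnight (limma, Benjamini-Hochberg adjusted p under 0.05 over all genes). A log2 difference above 1 was reached by 515 of the higher genes, and 406 of the lower genes were under -1. Beyond 3 on the log2 scale lay 30 higher and 20 lower genes. For 2810 genes (41.1%) the values of the times did not overlap, and 62 of the called genes had overlapping groups. The median difference of all tested genes was 0.01 with a median standard error (SE) of 0.22. Leaving out arrays lowered the counts in most cases: 584 were higher and 508 lower without ZT18 replicates 2 and 3, and 588 and 407 without replicate 3 of all times, but 1030 and 866 without ZT18 replicate 1. In whole shoots, fewer cells of a type and less RNA per cell cannot be told apart.

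**Figure D1:**
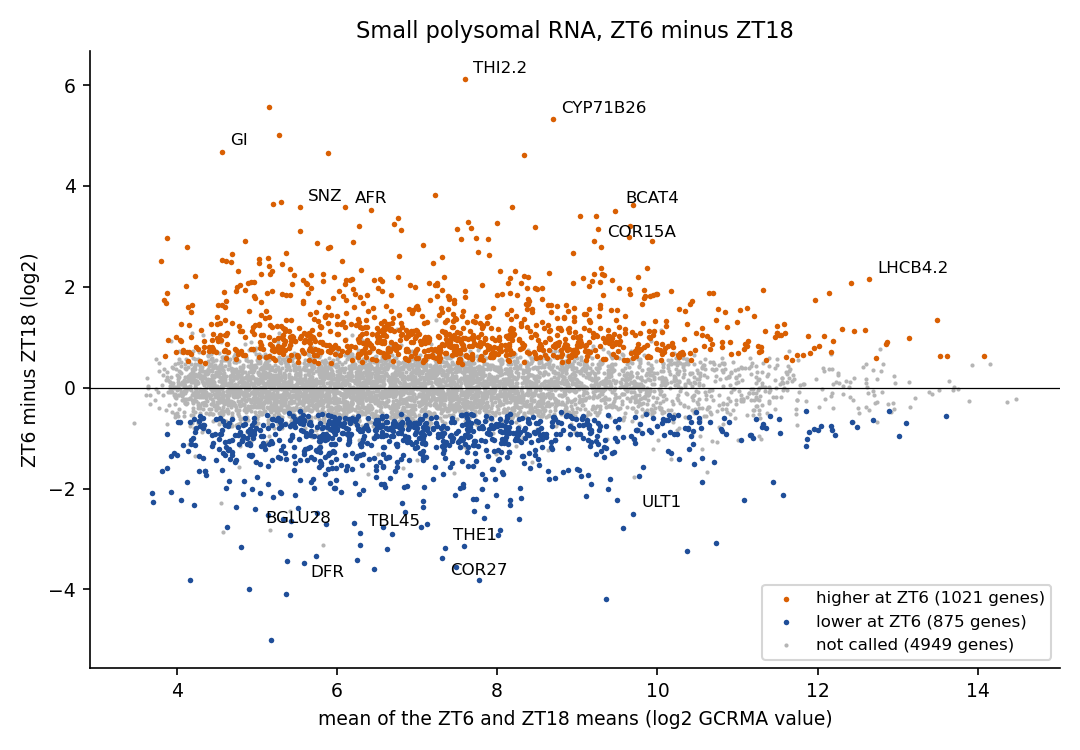
Difference between times (ZT6 minus ZT18, log2, vertical axis) against the mean of both group means (log2 GCRMA value, horizontal axis) for the 6845 genes tested in small polysomal RNA. Orange points are the 1021 genes higher at ZT6, blue points the 875 lower at ZT6 and grey points the 4949 that were not called, and THI2.2 has the largest positive difference (6.12).

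The transcript with the largest rise encodes a thionin, a small antimicrobial peptide. THI2.2 (AT5G36910) had 10.55, 10.41 and 11.01 at ZT6, against 4.32, 4.67 and 4.61 at ZT18, a log2 difference of 6.12 ± 0.21 (SE), or 69.7-fold (adjusted p = 2.7e-10). CYP71B26 (AT3G26290), a cytochrome P450 monooxygenase, had 11.31, 11.37 and 11.38 at ZT6, against 6.24, 6.17 and 5.70 at ZT18, a difference of 5.32 ± 0.31 (adjusted p = 4.5e-08). Replicates of both genes lay far closer to each other than the groups did. GI (AT1G22770), the clock protein GIGANTEA that also promotes flowering, had 7.05, 6.84 and 6.82 at ZT6. At ZT18 its values were 2.20, 2.27 and 2.20, at the lower end of the scale, so the difference of 4.68 ± 0.27 is set by that end. SNZ (AT2G39250), an AP2-type repressor of flowering, had 7.14, 7.43 and 7.40 at ZT6, against 2.85, 4.64 and 3.74 at ZT18, a difference of 3.59 ± 0.34. In none of these 4 genes did the groups overlap, which the rule for naming them required.

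Other genes with a symbol among the largest rises act in light signalling, defence metabolites and stress. AFR (AT2G24540), an F-box protein of far-red light signalling, had 7.65, 7.91 and 8.10 at ZT6, against 4.86, 3.21 and 4.85 at ZT18. Its difference was 3.58 ± 0.44 (12.0-fold). BCAT4 (AT3G19710), which starts the chain elongation of methionine for glucosinolates, had 11.29, 11.24 and 11.12 at ZT6, against 7.70, 7.33 and 8.15 at ZT18 (3.49 ± 0.23, adjusted p = 1.6e-07). SIS (AT5G02020), a salt-induced serine-rich protein, had 7.23, 7.47 and 7.23 at ZT6, against 4.50, 4.24 and 4.81 at ZT18, a difference of 2.79 ± 0.31. GSTU20 (AT1G78370), a glutathione S-transferase, had 9.26, 8.80 and 9.58 at ZT6, against 6.08, 6.44 and 7.26 at ZT18, a difference of 2.62 ± 0.34. The groups of all 4 did not overlap, again a condition for being named. Genes with only an AGI code were also among the 12 largest rises. These were AT1G73480 (5.56 ± 0.20, with ZT18 near the lowest value), AT1G13650 (5.01 ± 0.21), AT3G62950 (4.65 ± 0.43), AT1G62510 (4.61 ± 0.35), AT4G16000 (3.81 ± 0.32), AT3G46370 (3.69 ± 0.27), AT4G13800 (3.64 ± 0.21) and AT5G35970 (3.62 ± 0.25).

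The largest fall at ZT6 was that of AT2G25990, with 2.79, 2.86 and 2.37 at ZT6, near the lowest value, against 8.11, 7.48 and 7.43 at ZT18 (-5.00 ± 0.25, adjusted p = 1.4e-08). DFR (AT5G42800), dihydroflavonol reductase of anthocyanin synthesis, had 4.31, 4.88 and 4.42 at ZT6, against 7.55, 8.45 and 7.86 at ZT18, a difference of -3.42 ± 0.54 (adjusted p = 0.00031). COR27 (AT5G42900), a regulator of the clock and of freezing tolerance, had 5.11, 6.48 and 5.27 at ZT6, against 8.90, 8.71 and 9.40 at ZT18, a difference of -3.38 ± 0.35. Both were low on all 3 midday arrays. THE1 (AT5G54380), a receptor kinase that monitors the growing cell wall, had 6.03, 5.43 and 5.80 at ZT6, against 9.27, 8.72 and 8.82 at ZT18 (-3.18 ± 0.38). CIL (AT4G25990), related to a factor for chloroplast protein import, had 4.11, 4.12 and 3.99 at ZT6, against 6.37, 8.18 and 7.68 at ZT18 (-3.34 ± 0.42). ULT1 (AT4G28190), a chromatin factor that limits the size of shoot meristems, had 7.90, 8.94 and 8.50 at ZT6, against 11.20, 10.79 and 10.84 at ZT18 (-2.50 ± 0.24). RR16 (AT2G40670), a response regulator of cytokinin signalling, had 4.46, 4.62 and 4.46 at ZT6, against 7.06, 7.81 and 6.77 at ZT18 (-2.70 ± 0.25). In each of these genes every ZT6 array lay below every ZT18 array, as the naming rule required.

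Among the remaining large falls were AT4G21870 (-4.19 ± 0.24), AT1G78450 (-4.09 ± 0.26), AT3G16530 (-3.82 ± 0.46) and AT1G17665 (-3.81 ± 0.27, with ZT6 near the lowest value). AT3G23550 (-3.49 ± 0.34) and AT4G37295 (-3.43 ± 0.26) fell as well. OSM34 (AT4G11650), an osmotin-like protein of the pathogenesis-related kind, fell by 2.20 on the log2 scale (SE 0.23). AT2G07741 had 4.58, 4.33 and 5.07 at ZT6, against 5.52, 12.27 and 6.99 at ZT18 (-3.59 ± 1.14, adjusted p = 0.029). Its highest value was in ZT18 replicate 2, the array on which mitochondrion-encoded genes averaged 7.50, against 4.27 to 5.97 on the other 5 arrays, and the part of that signal in the result was not tested. Without that array the difference was -1.59 (adjusted p = 0.026), and the call ended in 9 of 19 alternatives.

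**Figure D2:**
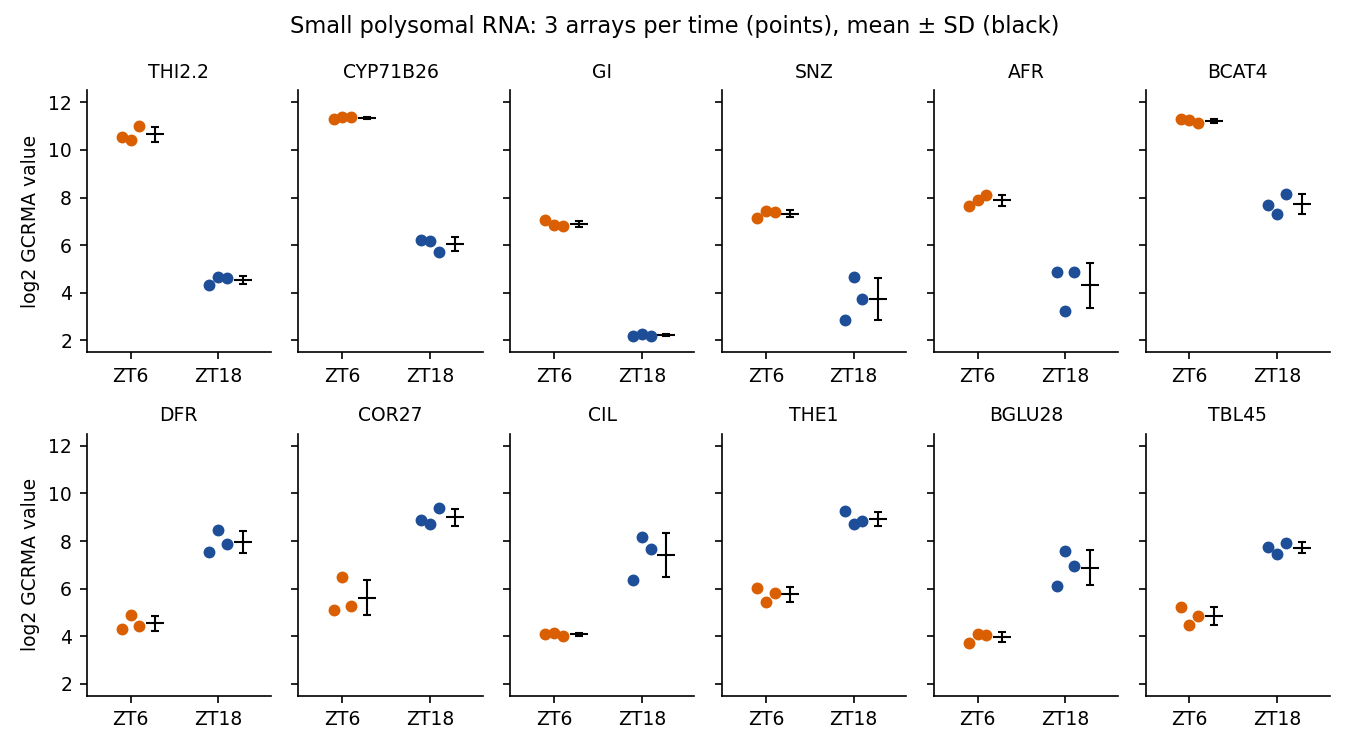
Log2 GCRMA values (vertical axis) of 12 genes on each small polysomal array, with ZT6 left (orange, 3 arrays) and ZT18 right (blue, 3 arrays). Black marks are the mean and SD. The upper row holds genes higher at ZT6 and the lower row genes lower at ZT6. In no panel do the groups overlap, which was a condition for naming these genes.

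Most tested genes for the photosynthetic apparatus and its pigments were higher at midday, while genes for carbon fixation and photorespiration were not called. Nuclear genes encoding subunits of the photosystems and electron carriers numbered 5, of which 4 were higher and 0 lower. Their median was 0.99, beside 0.01 for all genes, of which 14.9% were higher and 12.8% lower. PSBY (AT1G67740), of photosystem II, had 12.31, 12.13 and 12.19 at ZT6, against 10.79, 10.92 and 11.14 at ZT18 (1.26 ± 0.18). ATPC1 (AT4G04640), the gamma chain of ATP synthase in plastids, rose by 1.08 ± 0.25, PSAN (AT5G64040) of photosystem I by 0.99 ± 0.19 and PSBW (AT2G30570) of photosystem II by 0.86 ± 0.18. PSAE-1 (AT4G28750), also of photosystem I, differed by 0.47 ± 0.17 (adjusted p = 0.051). Genes of the antenna protein CP29 were split: LHCB4.2 (AT3G08940) had 13.81, 13.87 and 13.49 at ZT6, against 10.99, 11.86 and 11.86 at ZT18 (2.16 ± 0.25), and LHCB4.1 (AT5G01530) rose by 0.62 ± 0.17. LHCB4.3 (AT2G40100) had 5.41, 6.27 and 5.11 at ZT6, against 7.22, 7.20 and 7.71 at ZT18 (-1.78 ± 0.30). So 1 of these 3 related genes was lower on every midday array.

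Of 6 chlorophyll synthesis genes, 3 were higher and 0 lower (median 0.78), beside 14.9% and 12.8% of all genes. HEME2 (AT2G40490), uroporphyrinogen decarboxylase, had 8.63, 7.62 and 8.26 at ZT6, against 6.50, 6.67 and 6.65 at ZT18 (1.56 ± 0.27). PORB (AT4G27440), which reduces protochlorophyllide in the light, rose by 1.22 ± 0.27 and CHLI2 (AT5G45930), of magnesium chelatase, by 0.91 ± 0.24. HEMB1 (0.64, adjusted p = 0.056), CHLM (0.44, 0.14) and GSA1 (0.43, 0.29) were not called. Both tested carotenoid genes were higher, LYC (AT3G10230), lycopene beta-cyclase, by 1.03 ± 0.18 and Z-ISO (AT1G10830), an isomerase, by 0.76 ± 0.20. Of 10 nuclear genes for plastid ribosomal proteins, 3 were higher and 0 lower, beside the same shares of all genes. All 10 differences were above 0 (median 0.59), as were 3493 of 6845 over all genes. The 3 higher genes were AT2G43030 (1.04 ± 0.22), AT5G24490 (1.03 ± 0.22) and AT4G17560 (0.75 ± 0.25). By contrast, 0 of 3 Calvin-Benson genes passed (RCA 0.48, PRK 0.34, SBPASE -0.39), nor did any of 4 photorespiration genes, which ran between -0.39 and 0.36. Alternatives ended the calls of LHCB4.1, CHLI2, Z-ISO and AT4G17560 in 3 to 9 cases of 19, and those of PSAN, PSBW, ATPC1, PORB, AT2G43030 and AT5G24490 in 1 case each.

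All 4 tested cold-regulated genes were higher at ZT6, beside 14.9% of all genes, with a median of 2.38. COR15A (AT2G42540), a protectant of chloroplast membranes, had 10.88, 11.07 and 10.87 at ZT6, against 7.36, 8.26 and 6.98 at ZT18 (3.40 ± 0.33, 10.6-fold). Its close relative COR15B (AT2G42530) had 11.27, 10.90 and 10.98 at ZT6, against 9.48, 9.53 and 9.45 at ZT18 (1.56 ± 0.25). The dehydrin gene LTI30 (AT3G50970) had 8.00, 7.89 and 7.72 at ZT6, against 4.61, 4.82 and 4.59 at ZT18 (3.20 ± 0.20). COR47 (AT1G20440), another dehydrin, rose by 1.04 ± 0.25; its call ended without replicate 1 and without replicate 3 of all times. COR27, given above, is named for cold regulation too but was not on this list, and it moved the other way.

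Secondary metabolism was mixed, and its counts are to be read beside 14.9% higher and 12.8% lower of all genes. Both tested glucosinolate genes were higher, BCAT4 (above) and UGT74B1 (AT1G24100), which adds glucose to the thiohydroximate intermediate, with 8.01, 8.54 and 8.33 at ZT6, against 6.78, 6.52 and 6.11 at ZT18 (1.83 ± 0.24). Of 4 phenylpropanoid and flavonoid genes, 0 were higher and 3 lower (median -0.92): DFR, AT4G14090 (-1.14 ± 0.35) and UGT78D1 (AT1G30530), a flavonol rhamnosyltransferase (-0.69 ± 0.24). UGT78D2 (AT5G17050), a glucosyltransferase of the same pathway, was at -0.16 ± 0.17 (adjusted p = 0.52). Alternatives ended the calls of UGT78D1 and AT4G14090 in 10 and 8 of 19 cases. Of 21 UDP-glycosyltransferases (UGT), which attach sugars to small molecules, 6 were higher and 6 lower, beside 14.9% and 12.8% of all genes. UGT85A4 (AT1G78270) had 5.21, 5.03 and 5.43 at ZT6, against 7.29, 7.19 and 7.54 at ZT18 (-2.12 ± 0.21). UGT76E11 (AT3G46670) had 8.52, 8.52 and 8.77 at ZT6, against 7.38, 7.27 and 6.91 at ZT18 (1.42 ± 0.22). Within the UGT85A branch the direction differed: UGT85A5 (AT1G22370) rose by 0.94 ± 0.19 and UGT85A2 (AT1G22360) changed by -1.03 ± 0.19. UGT88A1 (AT3G16520) rose by 1.08 ± 0.17 and UGT71C5 (AT1G07240) changed by -1.38 ± 0.22. UGT72E1 (AT3G50740), of monolignol metabolism, was at -0.97 ± 0.32, a call that ended in 10 of 19 alternatives.

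Detoxification enzymes were read from 3 families, whose counts are to be read beside 14.9% higher and 12.8% lower of all genes. Of 6 tested glutathione S-transferases 3 were higher and 0 lower: GSTU20 (above), GSTL3 (AT5G02790), with 11.59, 11.41 and 11.41 at ZT6, against 9.81, 10.46 and 10.51 at ZT18 (1.21 ± 0.21), and GSTU16 (AT1G59700, 0.70 ± 0.20). Of 8 aldehyde dehydrogenases 3 were higher and 1 lower. ALDH7B4 (AT1G54100), a stress-induced member, had 10.39, 10.12 and 10.49 at ZT6, against 7.93, 8.06 and 8.26 at ZT18 (2.25 ± 0.21). ALDH11A3 (AT2G24270), which makes NADPH in the cytosol, rose by 1.39 ± 0.27. ALDH10A9 (AT3G48170) was at 0.51 ± 0.17, a call lost in 13 of 19 alternatives. ALDH2C4 (AT3G24503), which makes ferulic and sinapic acid, had 9.16, 9.10 and 8.83 at ZT6, against 10.27, 10.72 and 10.81 at ZT18 (-1.57 ± 0.22). Of 13 cytochrome P450 genes 4 were higher and 1 lower, with a median of 0.04 and 7 of 13 differences above 0. Besides CYP71B26 these were CYP78A9 (AT3G61880, 1.94 ± 0.29), CYP71B35 (AT3G26310, 1.06 ± 0.21), CYP71B28 (AT1G13090, 0.50 ± 0.17) and CYP71B6 (AT2G24180, -0.75 ± 0.19). CYP71B28 lost its call in 10 of 19 alternatives, CYP71B6 in 3, GSTU16 in 6 and ALDH11A3 in 1.

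Of 3 tested pathogen-defence genes, THI2.2 was higher and AT4G12500 and AT4G12490 were lower. AT4G12500 had 2.52, 2.43 and 3.77 at ZT6, against 6.43, 7.36 and 6.90 at ZT18 (-3.99 ± 0.78). The values 2.52 and 2.43 were near the lowest value, so the size of that difference is partly set by it. AT4G12490 had 5.41, 4.57 and 7.13 at ZT6, against 8.99, 9.49 and 9.31 at ZT18 (-3.56 ± 0.93, adjusted p = 0.011). In both genes ZT6 replicate 3 was the highest of the midday arrays, yet below every midnight array. The call of AT4G12490 ended in 6 of 19 alternatives, and that of AT4G12500 only without ZT18 replicates 2 and 3. Of 5 WRKY transcription factors, a family that acts in defence and senescence, 0 were higher and 2 lower. All 5 differences were below 0 (median -0.77). Over all genes 14.9% were higher and 12.8% lower, and 3493 of 6845 differences were above 0. WRKY22 (AT4G01250) had 5.15, 4.86 and 5.10 at ZT6, against 6.82, 6.44 and 6.44 at ZT18 (-1.53 ± 0.35). WRKY47 (AT4G01720) changed by -1.11 ± 0.23. WRKY53 (-0.77), WRKY20 (-0.29) and WRKY6 (-0.29) were not called. The call of WRKY22 ended in 2 of 19 alternatives and that of WRKY47 in 1.

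Cell wall genes moved in both directions, to be read beside 14.9% higher and 12.8% lower of all genes. Of 11 expansins and xyloglucan endotransglucosylases, proteins that loosen and remodel growing walls, 3 were higher and 5 lower (median -0.54). XTH32 (AT2G36870) had 7.09, 7.33 and 7.27 at ZT6, against 4.56, 5.74 and 4.99 at ZT18 (2.13 ± 0.27). EXPB3 (AT4G28250), a beta-expansin, rose by 2.10 ± 0.27 and EXPA8 (AT2G40610), an alpha-expansin, by 1.87 ± 0.31. The expansin-like EXLA2 (AT4G38400) had 5.39, 5.47 and 4.99 at ZT6, against 7.26, 7.25 and 7.01 at ZT18 (-1.89 ± 0.27). EXPA20 (AT4G38210) was at -1.65 ± 0.28, EXLA1 (AT3G45970) at -2.15 ± 0.70 and XTH18 (AT4G30280) at -1.66 ± 0.48, and the last 2 calls ended in 11 and 7 of 19 alternatives. Of 11 TBL genes, a family that acetylates wall polysaccharides, 0 were higher and 5 lower (median -0.25), beside 14.9% and 12.8% of all genes. TBL45 (AT2G30010) had 5.23, 4.45 and 4.85 at ZT6, against 7.76, 7.47 and 7.93 at ZT18 (-2.88 ± 0.23). TBL38 (AT1G29050, -1.76 ± 0.28), TBL37 (AT2G34070, -1.62 ± 0.19) and TBL32 (AT3G11030, -1.04 ± 0.26) also fell, the last of them with a call that ended in 4 of 19 alternatives. TUB6 (AT5G12250), a beta-tubulin, was the 1 of 7 tubulins that passed, at 9.37, 8.94 and 9.24 at ZT6, against 7.39, 7.87 and 7.79 at ZT18 (1.50 ± 0.22).

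Of 10 beta-glucosidases with a BGLU symbol, 2 were higher and 2 lower, which is near the shares over all genes (14.9% and 12.8%). BGLU44 (AT3G18080) had 10.44, 10.25 and 9.78 at ZT6, against 8.10, 8.08 and 8.23 at ZT18 (2.02 ± 0.19), and BGLU40 (AT1G26560) rose by 1.98 ± 0.27. BGLU28 (AT2G44460), a gene induced by sulfur deficiency, had 3.72, 4.10 and 4.04 at ZT6, against 6.12, 7.58 and 6.93 at ZT18 (-2.92 ± 0.38), and BGLU16 (AT3G60130) was at -1.54 ± 0.23. PYK10 (AT3G09260), also a beta-glucosidase, was on the root marker list and not among the 10 above. It had 10.70, 10.29 and 10.55 at ZT6, against 9.21, 9.25 and 9.73 at ZT18 (1.12 ± 0.24). Its call ended without replicate 1 of all times. Of 13 serine carboxypeptidase-like genes 3 were higher and 4 lower, beside the same shares of all genes. Those that fell were SCPL34 (AT5G23210, -2.19 ± 0.20), scpl35 (AT5G08260, -1.62 ± 0.21), scpl50 (AT1G15000, -1.46 ± 0.22) and scpl31 (AT1G11080, -1.41 ± 0.41). Those that rose, scpl48, scpl29 and SCPL49, did so by 0.90, 0.75 and 0.58, with adjusted p between 0.016 and 0.050. The calls of scpl48, scpl29, SCPL49 and scpl31 ended in 7, 11, 10 and 7 of 19 alternatives.

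Several small families gave 1 to 3 calls, to be read beside the 14.9% higher and 12.8% lower of all genes. Of 8 autophagy genes 3 were higher, ATG3 (0.86), ATG8C (0.72) and ATG8F (0.56), with adjusted p of 0.032 to 0.040, and each call ended in 8 to 10 of 19 alternatives. The tetraspanin TET3 (AT3G45600), a membrane protein, had 6.72, 5.77 and 6.55 at ZT6, against 3.77, 4.10 and 4.23 at ZT18 (2.32 ± 0.23). TET10 (AT1G63260) was lower by a log2 difference of -1.19 ± 0.21, and TET2, TET6, TET7 and TET8 lay between -0.08 and 0.07. BZIP24 (AT3G51960), a regulator of salt acclimation, was the 1 of 8 bZIP factors that passed (1.23 ± 0.34). Among ubiquitin pathway genes, UBC32 (AT3G17000, 0.98 ± 0.24), UBP26 (0.74) and UBP27 (0.49) were higher and UBC28 (-0.62) lower. Of 5 proteasome subunits AT5G23540 passed (0.73 ± 0.20), and the other 4 lay between -0.15 and 0.44. DPE1 (AT5G64860), the plastid disproportionating enzyme of starch breakdown, rose by 0.80 ± 0.23 and the other tested starch gene, AT5G26570, was at -0.16. TAPX (AT1G77490), the thylakoid ascorbate peroxidase, was at 0.62 ± 0.21 and SAPX at 0.38 (adjusted p = 0.30). The calls of BZIP24, UBC32, UBC28, UBP26, UBP27, AT5G23540, DPE1 and TAPX ended in 3 to 13 of 19 alternatives.

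Both tested genes of the clock list were higher, beside 14.9% of all genes. They were GI (above) and AT5G52660, which had 5.43, 5.49 and 5.13 at ZT6, against 4.52, 4.35 and 4.19 at ZT18 (1.00 ± 0.18). The others of the 31 genes on that list were not analysed here. FMA (AT3G24140), the stomatal lineage factor FAMA and the 1 tested guard cell marker, had 5.70, 5.77 and 5.40 at ZT6, against 6.18, 6.03 and 6.27 at ZT18 (-0.54 ± 0.17), a call that ended in 10 of 19 alternatives. Tested sulfate assimilation genes were APS3 (-0.51, adjusted p = 0.16) and SIR (-0.83, 0.061). AKINBETA1, on the sugar-starvation list, differed by -0.49 (0.13). AT5G37670, of the heat shock list, differed by 0.61 (0.12). The translation factors EIF4A-2 (-0.22) and AT2G40290 (0.04) and the cell division genes HTB1 (0.27) and PRL (-0.15) were not called. Of 9 genes with a conserved-peptide upstream open reading frame, 2 were higher and 0 lower, beside 14.9% and 12.8% of all genes. Such a frame is a short one in the leader that can stall ribosomes. AT5G50010 had 5.81, 5.69 and 5.75 at ZT6, against 4.38, 3.29 and 3.61 at ZT18 (1.99 ± 0.25), and AT1G73600 rose by 1.40 ± 0.20. Lists for jasmonate, nitrate assimilation, phloem and flower markers had 0 measured members.

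**Figure D3:**
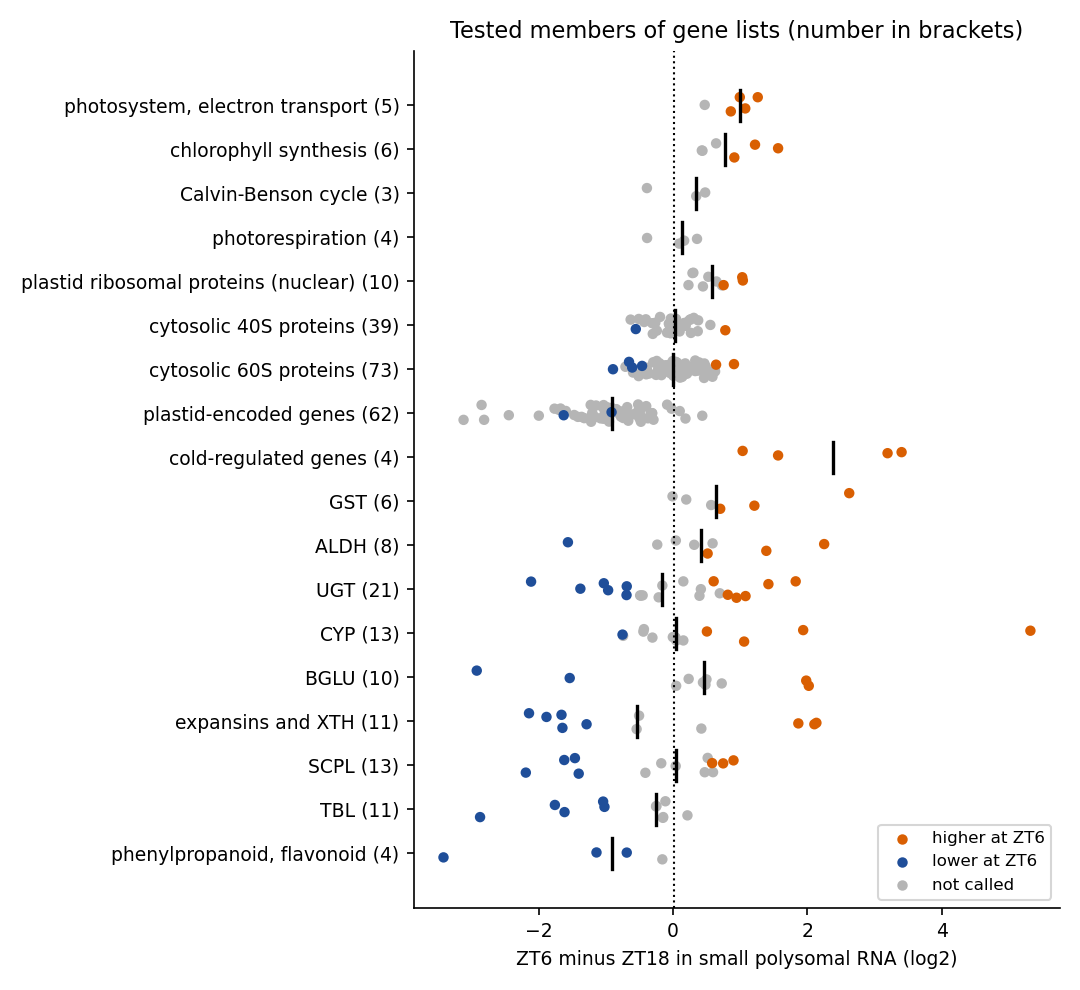
Difference of each tested list member (ZT6 minus ZT18 in small polysomal RNA, log2, horizontal axis), 1 row per list with the number of tested genes in brackets. Orange points were higher and blue points lower at ZT6, grey points were not called, black bars are list medians and the dotted line is the median of all tested genes (0.01); all 4 cold-regulated genes lie to the right of 1 and most plastid-encoded genes to the left of 0.

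For cytosolic ribosomal proteins, 8 of 112 tested genes were called in this fraction, beside 27.7% of all genes. Of 39 tested genes for 40S proteins of the cytosolic ribosome, 1 was higher and 1 lower (median 0.03), and of 73 genes for 60S proteins, 2 were higher and 4 lower (median 0.00). Their differences ran between -0.90 and 0.91. Those called were AT5G15200 (0.78), AT2G47610 (0.91) and PGY1 (AT2G27530, 0.64), which were higher, and AT3G57490 (-0.56), AT3G02190 (-0.90), AT5G67510 (-0.66), AT5G60670 (-0.61) and AT4G26230 (-0.46), which were lower. Each of the 8 calls ended in at least 4 of 19 alternatives. These families have near-identical copies, so a probe set may read more than 1 gene. Of 14 nuclear genes of the mitochondrial respiratory chain, 2 were higher and 0 lower, beside 14.9% and 12.8% of all genes. The share higher was near that of all genes. The 2 were AT5G40810 (0.85 ± 0.20) and AT3G27240 (0.79 ± 0.28), and their calls ended in 2 and 10 of 19 alternatives.

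Plastid-encoded transcripts had a median of -0.92, but 2 of 62 passed, beside 27.7% of all genes. The 2 were rps18, of the plastid ribosome (-1.63 ± 0.54), and ndhC, of the NDH complex (-0.92 ± 0.27). Most organelle transcripts lack the stable poly(A) tail that the oligo(dT) primer binds. ndhC had 10.53, 10.40 and 10.26 at ZT6, against 10.75, 11.45 and 11.74 at ZT18. Of 6 mitochondrion-encoded genes ccb452, of cytochrome c maturation, passed, at 3.95, 5.05 and 4.88 at ZT6, against 5.01, 7.87 and 6.47 at ZT18, with groups that overlap (-1.82 ± 0.55). The others were nad5 (-1.12), ccb382 (-0.96), cox1 (-0.95), nad1 (-0.91) and nad4 (-0.87). Without ZT18 replicates 2 and 3 the plastid median was 0.98, with 7 genes higher and 0 lower, and the mitochondrial median 0.69 with 0 called. Without ZT18 replicate 1 the plastid median was -1.89, with 52 genes lower and 0 higher, and the mitochondrial median -1.78, with 5 of 6 lower. The size and direction of the organelle lists therefore depend on which ZT18 arrays are kept, and the calls of rps18, ndhC and ccb452 ended in 11, 7 and 8 of 19 alternatives.

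The arrays of this fraction at the other times place the comparison in the day. Among the 1021 genes higher at ZT6, the highest of the 4 time means was at ZT6 in 797, at ZT0 in 115 and at ZT12 in 109. Among the 875 genes lower at ZT6, the highest was at ZT18 in 583, at ZT0 in 253 and at ZT12 in 39. That no gene of the first set peaked at ZT18, and none of the second at ZT6, follows from how they were called. COR15A averaged 4.81, 10.94, 11.64 and 7.53 at ZT0, ZT6, ZT12 and ZT18, so its lowest level was at lights on. COR15B had the same order, at 5.84, 11.05, 12.52 and 9.48. GI averaged 2.30, 6.90, 5.53 and 2.22, and CYP71B26 5.83, 11.36, 8.91 and 6.03. AFR was already high at ZT0, at 8.82, 7.89, 4.04 and 4.31 over the 4 times, and so was SIS, at 7.97, 7.31, 6.50 and 4.52. COR27 was highest at ZT12, at 7.91, 5.62, 10.92 and 9.00. DFR averaged 4.41, 4.53, 4.51 and 7.95, with the highest mean at ZT18, and its ZT12 arrays were spread at 3.68, 6.35 and 3.51. RR16 was high at both ends of the night, at 7.17, 4.51, 4.61 and 7.21.

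**Figure D4:**
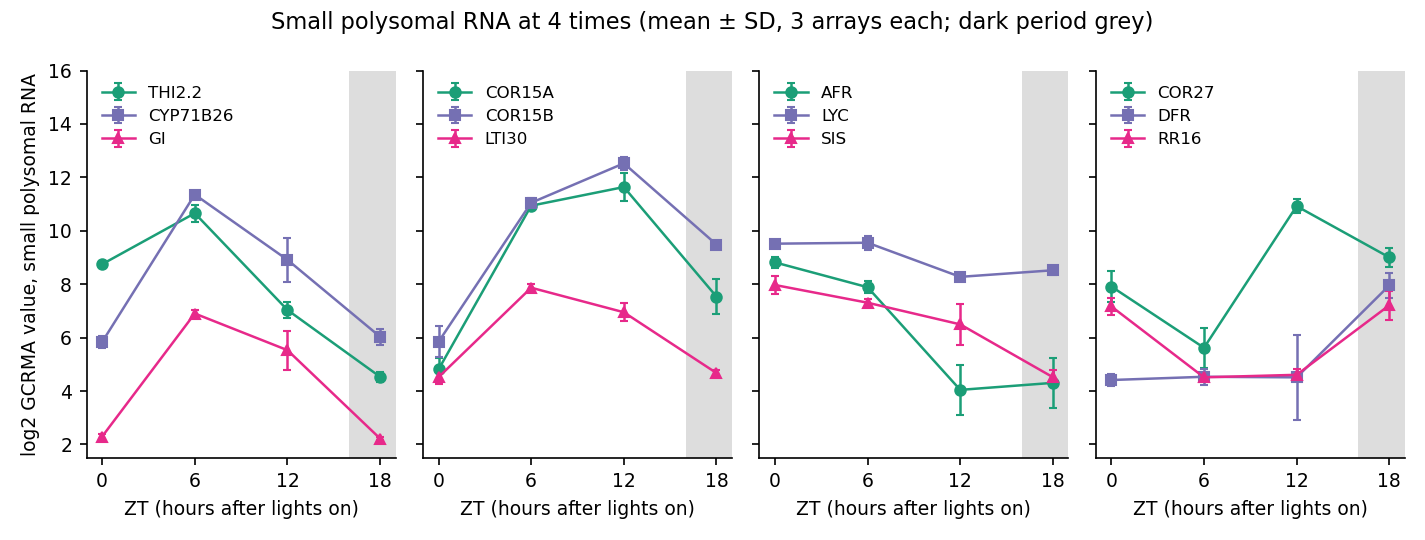
Mean log2 GCRMA value in small polysomal RNA (vertical axis) at ZT0, ZT6, ZT12 and ZT18 (hours after lights on, horizontal axis) for 12 genes; bars are the SD of 3 arrays and grey marks the dark period. COR15A and COR15B are highest at ZT12, AFR and SIS at ZT0, and DFR at ZT18.

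The same extracts were compared in the fractions on either side. The small and the other fractions share extracts, so agreement between them is no independent evidence. Of the genes higher at ZT6 in small polysomes, 704 were also higher in non-polysomal RNA (69.0% of the small and 66.0% of the non-polysomal set), and 694 in large polysomes (68.0% and 64.4%). Of those lower in small polysomes, 515 were also lower in non-polysomal RNA (58.9% and 73.4%) and 617 in large polysomes (70.5% and 52.9%). Of all tested genes, 25.8% were called in non-polysomal and 32.8% in large polysomal RNA. Calls of opposite direction were found in 0 genes against non-polysomal RNA and in 1 against large polysomes. That gene, AT3G08680, differed by 0.62 in small and by -0.66 in large polysomes. THI2.2 differed by 6.12 in small polysomal, 6.51 in non-polysomal and 5.14 in large polysomal RNA.

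Whether the difference between times itself differed between fractions was tested on differences within each extract. For small minus non-polysomal, 1 gene had a difference above (0.0146%) and 1 below (0.0146%) that of midnight, together 0.0292% of 6845. An unadjusted p under 0.05 was found for 721 genes (10.5%; 3.93% with a change above 0), and the extracts of the times did not overlap in 15.6%. AT2G47880 passed with small minus non-polysomal differences of -1.77, -0.88 and -1.75 at ZT6, against 1.31, 0.62 and 1.22 at ZT18 (-2.52 ± 0.39, adjusted p = 0.029). At ZT6 its level was lower in small polysomes than in non-polysomal RNA in all 3 extracts, and at ZT18 it was higher. The other gene was plastid psbB, for the CP47 protein of photosystem II (1.72 ± 0.29, adjusted p = 0.048). The call of psbB ended in 12 of 19 alternatives, among them all 36 arrays (adjusted p = 0.54), and that of AT2G47880 in 9. Over all genes the median half-width of the 95% interval was 0.59, and for 70.0% of the 1896 genes called in small polysomes the interval lay within 1 of 0. Changes smaller than that half-width were mostly not detectable with 3 extracts a time, and larger ones could be missed too. The interval is not adjusted for the number of genes, and of the 721 genes with an unadjusted p under 0.05, 2 passed.

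For small minus large polysomal, the midday difference lay above that of midnight in 26 genes (0.380%) and below it in 10 (0.146%), together 0.526% of 6845. An unadjusted p under 0.05 was found for 1212 genes (17.7%; 11.1% with a change above 0), and the extracts of the times did not overlap in 22.6%, nor in any of the 36 called genes. With cyclic loess the counts were 27 and 25, and with median centring 27 and 20. Each of the 36 kept its sign in all alternatives that could be compared gene by gene, but 0 to 14 stayed called when 1 extract, or 1 replicate of all times, was left out, and 2 without the filter on dim genes. AT2G47880 was among them, with small minus large differences of 1.09, 1.50 and 1.16 at ZT6, against -0.68, -0.46 and -0.69 at ZT18 (1.86 ± 0.33, adjusted p = 0.035). SAG29 (AT5G13170), the sucrose transporter SWEET15, had 0.87, 1.80 and 1.83 at ZT6, against 0.03, 0.00 and -0.16 at ZT18 (1.55 ± 0.28). Its level rose at ZT6 in small polysomes (2.31 ± 0.34) and differed by 0.76 in large polysomes (adjusted p = 0.051). At ZT18 it was dim, at 3.65, 3.65 and 3.53 in small and 3.62, 3.65 and 3.69 in large polysomes. The ZT18 differences of SAG29 near 0 may therefore be background minus background. TUB6 had 0.29, -0.31 and 0.13 at ZT6, against -1.39, -1.09 and -1.23 at ZT18 (1.27 ± 0.25). Its level rose by 1.50 in small polysomes and differed by 0.23 in large ones. The small minus large difference also changed upward in AT3G14430 (1.84 ± 0.38), AT1G32410 (1.64 ± 0.35) and AT2G43610 (1.52 ± 0.24). The level of AT2G43610 itself differed by -0.56 in small polysomes (adjusted p = 0.15) and by -2.08 in large ones, and that of AT1G32410 by 0.80 (adjusted p = 0.094) and -0.84. The calls of the 5 largest changes in each direction of this comparison ended in 9 to 11 of 19 alternatives.

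Of the 10 genes whose small minus large difference was lower at ZT6, 4 were plastid-encoded: psbD, for the D2 protein of photosystem II (-1.74 ± 0.34), rpl22, of the plastid ribosome (-1.36 ± 0.25), and the photosystem II genes psbL (-1.20) and psbI (-1.10). These 2 were named because plastid genes made up so large a share, after their values were seen. psbD had small minus large differences of -0.73, -1.12 and -2.02 at ZT6, against -0.01, 0.61 and 0.76 at ZT18. Its level in small polysomes was 6.05, 7.59 and 6.55 at ZT6, against 3.65, 9.26 and 7.54 at ZT18, an overlap that left it uncalled in this fraction alone. AT2G34080 (-1.74 ± 0.33), AT1G70880 (-1.67 ± 0.32) and AT2G07719 (-1.48 ± 0.30) had the other large differences. In large polysomes AT2G07719 was dim at both times, at 2.62, 3.47 and 3.11 at ZT6, against 2.20, 3.66 and 2.97 at ZT18. AT2G34080 was dim there too, at 3.64, 3.95 and 3.98 at ZT6, against 4.11, 2.99 and 3.64 at ZT18. Whether these large polysomal values are background was not tested. In small polysomes AT2G07719 was highest in ZT18 replicate 2 (6.10), the array with the highest mitochondrion-encoded mean. The part of that signal in its result was not tested. AT1G70880 rose at ZT6 in both fractions, by 1.68 in small and 3.34 in large polysomes. At ZT18 it was dim, at 3.14, 3.02 and 2.93 in small and 3.45, 2.55 and 3.14 in large polysomes. Its difference between fractions at ZT18 may therefore be background.

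Lists showed where the small fraction sat between its neighbours. The 112 tested genes for cytosolic ribosomal proteins had a median difference between times of 0.02 in small polysomes, 0.16 in non-polysomal RNA and -0.33 in large polysomes. In large polysomes 28 were lower and 0 higher at ZT6 (17.0% of all genes were lower there), and in non-polysomal RNA 11 were higher and 1 lower (15.6% and 10.3% of all genes). The mean small minus large difference of the list was 0.19, -0.10 and 0.11 in the ZT6 extracts, against -0.43, -0.28 and -0.20 in the ZT18 extracts, with no overlap. Of the 112 genes, 101 had a change above 0 in small minus large, beside 3709 of all 6845 genes. The 112 genes share extracts, so they are not independent. The list median was 0.38, beside 0.04 for all genes, with 0 of the 112 called. The median ran from 0.20 to 0.50 over the alternatives, and it was 0.20 with cyclic loess, where 83 of 112 were above 0. The small minus non-polysomal means overlapped between the times, at -0.42, -0.51 and -0.57 at ZT6, against -0.48, -0.31 and -0.23 at ZT18.

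The 6 LSM genes, whose products form rings that act in mRNA splicing and decay, showed the same order with larger steps. Their median difference between times was 0.10 in small polysomes, 0.56 in non-polysomal RNA and -0.61 in large polysomes, and 0 of 6 were called in small polysomes. Their mean small minus large difference was 1.09, 1.13 and 1.26 at ZT6, against 0.59, 0.61 and 0.70 at ZT18. The small minus non-polysomal difference was -0.65, -0.53 and -0.49 at ZT6, against -0.04, -0.10 and -0.06 at ZT18. Neither measure overlapped between the times, while 0 of 6 genes were called for either change. LSM6B (AT2G43810) differed by -0.54 in small polysomes, 0.25 in non-polysomal RNA and -1.39 in large polysomes.

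Plastid-encoded transcripts ran the other way. Their mean small minus large difference was 0.88, 0.60 and 0.35 at ZT6, against 1.17, 1.74 and 1.52 at ZT18, and their small minus non-polysomal difference was 0.29, 0.10 and 0.08 at ZT6, against -0.92, -0.29 and -0.57 at ZT18. In small minus large, 1 of 62 had a change above 0, beside 3709 of all 6845 genes (median -0.90, with 4 called). In small minus non-polysomal 58 of 62 were above 0, beside 3266 of 6845 (median 0.77, with 1 called). Without ZT18 replicates 2 and 3 these medians were -0.65 and 1.03, in the same direction. The 62 genes share extracts, so they are not independent. With all 36 arrays 0 of them were called in either comparison. Those with an unadjusted p under 0.05 then fell from 46 to 4 in small minus large, and from 39 to 1 in small minus non-polysomal. The polyadenylated controls had small minus large differences of 0.83, 1.13 and 0.55 at ZT6, against 0.74, 1.47 and 1.40 at ZT18, which overlap. Their small minus non-polysomal differences were -0.44, -0.04 and 0.08 at ZT6, against -0.46, -0.99 and -0.98 at ZT18, without overlap and in the direction of the plastid change. The part of these signals in the result was not tested.

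**Figure D5:**
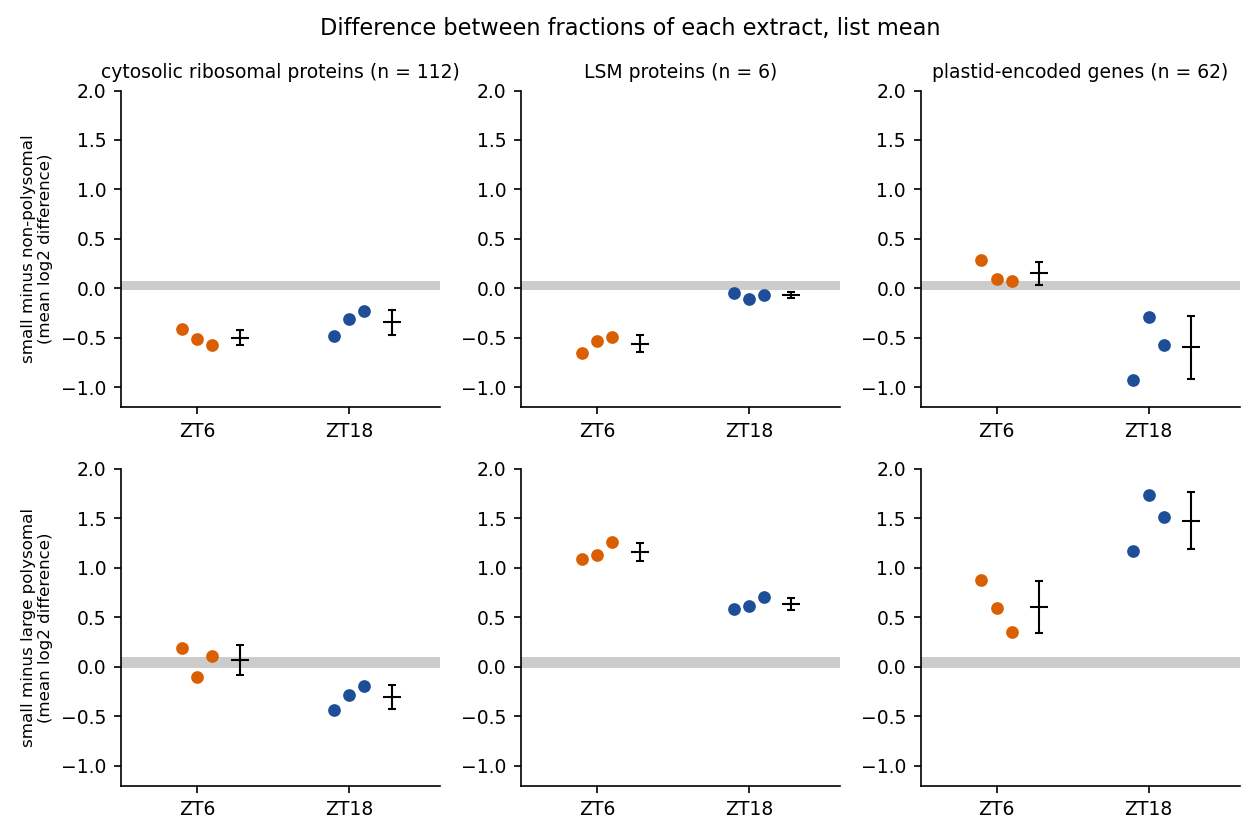
Mean difference between fractions of each extract (log2, vertical axis), small minus non-polysomal in the upper row and small minus large polysomal in the lower, for 112 cytosolic ribosomal protein genes, 6 LSM genes and 62 plastid-encoded genes. ZT6 extracts are orange (left) and ZT18 extracts blue (right), black marks are mean and SD of 3 extracts, and the grey band is the range for all tested genes; in the lower row the times do not overlap in any of the 3 lists.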

How the data were processed

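The deposited table holds log2 expression values per probe set of an Affymetrix array, made by the authors with GCRMA (affy 1.42.3, R 3.1), per the submitters' processing notes. Per the labels' protocols, biotinylated cRNA was prepared after cDNA synthesis from an oligo(dT) primer, which favours RNA with a poly(A) tail. Arrays carry no read depth; their number limits the precision. Of 22810 probe sets, 64 are controls, 13513 match 1 gene, 503 several and 8730 have no gene in the probe table. Symbols come from RefSeq's table of assembly TAIR10.1, which matched 6822 of 6845 tested genes; a gene without a symbol is given by its AGI code. Coordinates and sequences are not used here.

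Each gene was read from its brightest single-gene probe set and tested if its mean over 36 arrays was at least 4 (6510 of 13355 genes were left out). The main fit (limma 3.58.1, R 4.3.3) held the 12 small polysomal arrays with 4 time groups and contrasted ZT6 with ZT18. Changes between fractions were fitted on the 12 within-extract differences, since fractions of an extract deviated together (r 0.243 to 0.683 in 24 pairs). Tests were 2-sided with Benjamini-Hochberg adjustment over all genes.

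Genes are named by rule: the 12 largest non-overlapping called differences in each direction, the 5 largest for each comparison of fractions, up to 4 called members of a list in each direction, and every tested member of lists with at most 6. The 10 largest with a symbol in each direction were added after values were seen. Members and lists were chosen with earlier results of these data known. Lists were written by AGI code or taken as symbol families, and are described by counts and medians, with no test of a list. Alternatives covered the arrays fitted, filter, scaling, variance model, probe-set choice, a replicate block and left-out arrays.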

Additional observations from a re-analysis of the deposited data

Results flagged for a closer look

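The difference between ZT6 and ZT18 differed between small polysomal and another fraction in a test of that difference for the genes named above. Each of these calls ended in 9 to 12 of 19 alternatives. Against non-polysomal RNA the genes were psbB (1.72) and AT2G47880 (-2.52). Against large polysomal RNA the changes above 0 were AT2G47880 (1.86), AT3G14430 (1.84), AT1G32410 (1.64), SAG29 (1.55) and AT2G43610 (1.52), and those below 0 were AT2G34080 (-1.74), psbD (-1.74), AT1G70880 (-1.67), AT2G07719 (-1.48) and rpl22 (-1.36), all on the log2 scale. AT2G47880 is the 1 gene called in both comparisons, with 3.68, 5.45 and 4.82 at ZT6, against 6.06, 6.35 and 6.44 at ZT18 in small polysomes. In large polysomes it had 2.59, 3.95 and 3.66 at ZT6, against 6.74, 6.80 and 7.13 at ZT18. In non-polysomal RNA it had 5.45, 6.33 and 6.57 at ZT6, against 4.75, 5.73 and 5.22 at ZT18.

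Probe sets with several genes, with no gene in the probe table or dimmer than another probe set of their gene were not used above. Of 5874 such probe sets past the level filter, 1843 (31.4%) were called between ZT6 and ZT18 in small polysomal RNA, 1040 higher and 803 lower, and they are unnamed here.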

How the results depend on the processing

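In small polysomal RNA, leaving out 1 array or 1 replicate number gave 588 to 1030 higher and 407 to 866 lower genes. The lowest counts came without replicate 3 of all times (588 and 407), and without replicate 1 the lower genes numbered 567. Without ZT18 replicates 2 and 3 the counts were 584 and 508, and over all probe sets 2076 and 1692. With those left out, the lone ZT18 array is assumed to vary like the other groups. Other settings kept both counts within 1.5 times.

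The replicate numbers were not used as pairs: same-numbered ZT6 and ZT18 arrays deviated together only at r = 0.21, 0.091 and 0.047, and ZT6 replicate 3 correlated best with ZT18 replicate 2 (0.137). The numbers still carry something shared, since replicate 1 had the lowest plastid and hybridisation control means in 12 of 12 groups. With the replicate block, 1081 genes were higher and 934 lower.

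For the change of small minus non-polysomal RNA (1 higher, 1 lower), higher and lower genes were 3 and 1 with all 36 arrays, 0 and 1 with only ZT6 and ZT18, 3 and 2 with the replicate block, 1 and 0 without the filter on dim genes, 2 and 1 with median centring and also with cyclic loess, and 3 and 5 over all probe sets. They were 1 and 2 without ZT18 replicates 2 and 3, and 0 to 4 and 0 to 2 with 1 array or replicate number left out. For small minus large polysomal RNA (26 and 10), they were 5 and 4 without the filter, 27 and 20 with median centring, 27 and 25 with cyclic loess, 73 and 35 over all probe sets, 36 and 15 with the replicate block, 0 and 0 without ZT18 replicates 2 and 3, and 0 to 10 and 0 to 14 with 1 left out. The causes were not tested.

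Of 3760 values of named genes under alternatives, 3197 kept direction and side of the threshold, 522 were no longer called, 40 became called and 1 reversed: psbD in small polysomal RNA, 3.075 without ZT18 replicates 2 and 3 against -0.09 with them, though it was not called with them. Without ZT18 replicate 1 it was -1.67 (adjusted p = 0.03), psbB -2.32 (0.0079) and rpl22 -2.25 (0.017), all called lower. Of 134 named genes called in small polysomal RNA, 74 were called in every alternative and 60 lost the call in at least 1. A group mean within 0.5 of the lowest value was found in 4 of the higher and 4 of the lower genes. Dim genes outside that margin, such as SAG29 and AT1G70880, may be limited by background too.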

Other observations

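Neighbouring genes gave values a reader may want to follow up. In the gene table, 1975 pairs of neighbouring protein-coding genes had both members tested. Of these, 194 had both genes called in small polysomal RNA, 126 in the same and 68 in opposite directions. Over all tested genes 14.9% were higher and 12.8% lower. Whether neighbours were called together more often than other pairs was not tested. A probe set may also read both genes of a similar pair, which was not tested either. The opposite pair with the largest differences was AT1G13640 (-2.92) beside AT1G13650 (5.01), followed by AT5G01740 (-2.59) beside AT5G01750 (2.19) and AT1G07040 (1.56) beside AT1G07050 (-2.09). Pairs that moved together included AT4G15680 (2.45) beside AT4G15690 (2.94), AT1G66930 (-2.77) beside AT1G66940 (-2.38) and AT1G73470 (2.23) beside AT1G73480 (5.56). These pairs were picked after their values were seen.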
